A study of Mus musculus with 9 samples.

Results

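The transcripts of 8 genes of the mouse Ms4a family, Ms4a4b, Ms4a4c, Ms4a4d, Ms4a6b, Ms4a6c, Ms4a6d, Ms4a7 and Ms4a8a, were followed in dendritic cells (DCs) grown from bone marrow. The genes were taken by symbol, as 8 of the 55471 genes counted. RNA sequencing was done on 9 libraries of wild-type (WT) DCs grown in GM-CSF at 20 ng/mL from the bone marrow of female C57BL/6 mice of 8 to 20 weeks of age. Of these, 3 were left unstimulated, 3 received LPS, the bacterial cell wall component sensed by TLR4, at 100 ng/mL, and 3 received IFN-β, a type I interferon, at 1000 U/mL, each for 6 h. The labels give each condition a library A, a library B and a library C, and nothing in them says whether the 3 come from separate mice, so p-values measure the spread between these libraries.

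MS4A proteins are small membrane proteins that cross the membrane several times and sit beside signalling receptors. The family's best-known members mark other cells: Ms4a1 encodes CD20 of B cells and Ms4a2 encodes the β chain of the high-affinity IgE receptor of mast cells and basophils. The genes studied here belong to branches that are known from monocytes, macrophages and DCs, apart from Ms4a4b, which is best known from T cells.

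Total counts per library ranged from 33425803 to 43735199. Levels are given as CPM, the counts of a gene scaled to the size of its library, with TMM factors to correct for composition. All 10 of the DC markers checked were above 1 CPM on average in each condition, as were 11 or 12 of 12 monocyte and macrophage markers, so the cultures held transcripts of both and the gene levels below belong to the culture as a whole. In such bulk samples, a change in the share of a cell type and a change in RNA per cell cannot be told apart. The 10 T and NK cell markers summed to between 1.03 and 4.52 CPM per library. Ncr1 was at 0 in the unstimulated and the IFN-β libraries, Cd3g in the LPS and the IFN-β libraries and Cd3e in the IFN-β libraries. The 8 mast cell and basophil markers summed to between 1.09 and 1.44 CPM in unstimulated libraries and to between 130.04 and 151.7 CPM under LPS, where 1 of the 8, the histidine decarboxylase gene Hdc, was above 1 CPM and Fcer1a, Mcpt4 and Tpsb2 were at 0.

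The 8 genes lie within 537.4 kb of chromosome 19 (GRCm38), between 11067471 and 11604849. Ms4a4c (ENSMUSG00000024675), Ms4a4b (ENSMUSG00000056290), Ms4a6c (ENSMUSG00000079419), Ms4a6b (ENSMUSG00000024677) and Ms4a4d (ENSMUSG00000024678) follow each other on the plus strand. Ms4a8a (ENSMUSG00000024730), Ms4a7 (ENSMUSG00000024672) and Ms4a6d (ENSMUSG00000024679) are on the minus strand. Within the branches the genes are close copies. The coding sequences of Ms4a4b and Ms4a4c were identical at 91.7% of aligned positions, those of Ms4a4c and Ms4a4d at 87.9%, and those of Ms4a6b and Ms4a6c at 85.4%, while Ms4a4b and Ms4a6b shared 59.9%. Of all 50-base stretches of the longest transcript, 11.9% in Ms4a6c, 8.48% in Ms4a4c, 4.19% in Ms4a4b, 3.28% in Ms4a6b and 2.92% in Ms4a6d also occurred in another gene, against 0 in Ms4a8a. Ms4a4c shared them with Ms4a4b and Ms4a4d, and Ms4a6b with Ms4a6c and Ms4a6d among others, and reads from those stretches may be lost or placed on the copy. The exons of Ms4a6c also overlap those of the opposite-strand gene BE692007 over 1088 bases, and whether the counting used the strand is not given in the sources used here.

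The RefSeq promoter table (GRCm38.p6), with windows from 250 bases before to 50 after a start site, held 8 windows for 7 of the 8 genes, Ms4a7 having 2 and Ms4a6d having none. The 250 bases before the start are shown for the Ms4a4b and Ms4a4c pair and for the Ms4a6b and Ms4a6c pair, because the copies within each pair are close in coding sequence and lie far apart in level. They are read 5′ to 3′ on the plus strand, from chr19:11443308-11443557 for Ms4a4b, chr19:11407411-11407660 for Ms4a4c, chr19:11518309-11518558 for Ms4a6b and chr19:11469118-11469367 for Ms4a6c, and capitals mark the longest run of bases that the members of a pair share.
Ms4a4b: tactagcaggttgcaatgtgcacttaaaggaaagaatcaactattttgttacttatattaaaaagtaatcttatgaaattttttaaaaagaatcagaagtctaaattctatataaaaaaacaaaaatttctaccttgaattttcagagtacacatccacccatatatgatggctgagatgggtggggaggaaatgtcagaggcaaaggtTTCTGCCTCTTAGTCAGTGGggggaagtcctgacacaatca
Ms4a4c: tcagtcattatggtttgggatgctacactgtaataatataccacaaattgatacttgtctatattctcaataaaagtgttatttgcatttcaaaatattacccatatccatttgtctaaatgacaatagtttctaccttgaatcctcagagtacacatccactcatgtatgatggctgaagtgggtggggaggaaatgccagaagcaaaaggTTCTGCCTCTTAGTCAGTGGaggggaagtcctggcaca
Ms4a6b: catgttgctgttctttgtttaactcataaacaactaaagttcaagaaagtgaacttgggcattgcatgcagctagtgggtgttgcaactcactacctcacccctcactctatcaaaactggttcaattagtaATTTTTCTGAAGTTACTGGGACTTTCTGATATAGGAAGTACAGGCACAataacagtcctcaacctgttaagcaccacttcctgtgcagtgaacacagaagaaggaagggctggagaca
Ms4a6c: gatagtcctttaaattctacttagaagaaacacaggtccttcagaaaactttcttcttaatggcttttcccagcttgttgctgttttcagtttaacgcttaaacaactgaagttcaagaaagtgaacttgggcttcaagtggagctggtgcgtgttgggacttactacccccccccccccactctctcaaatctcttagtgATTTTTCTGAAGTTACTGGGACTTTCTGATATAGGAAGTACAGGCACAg

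The shared run was 20 bases long in Ms4a4b and Ms4a4c, from -41 and -38 relative to the start, and 48 bases long in Ms4a6b and Ms4a6c, from -118 and -49. Across the branches the longest shared run between any of these 4 genes was 9 bases. The core of the interferon-stimulated response element (ISRE), the GAS element of STAT factors, TTCNNNGAA, and the NF-kB site were searched on both strands. None of the 3 was found in the 8 windows, while 3.44%, 8.3% and 4.51% of the 32851 windows of all genes hold them. In GENCODE M21 the genes Ms4a4c and Ms4a6b begin before their windows, at 11404770 and 11516512, where no search was made. A shorter form, GAAANNGAA, which lacks the last A of the ISRE core and overlaps it, was tried after the windows were read. It occurred in 4 of the 8 windows, once each in Ms4a6b (from -206), Ms4a6c (from -133) and both windows of Ms4a7, and in 8.56% of all windows. The matches in Ms4a6b and Ms4a6c both read GAAAGTGAA, within sequence that both promoters share. As the form was tried after the windows were read, these shares are not a test.

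Levels between genes were compared as CPM per kb of exon. Ms4a6d was the highest of the 8 in each condition, with 55.96 ± 20.1 CPM per kb (SD, n = 3) in unstimulated DCs, 409.4 ± 68.1 under LPS and 243.9 ± 35.8 under IFN-β. Ms4a6c was next in unstimulated DCs with 19.5 ± 11.4, and its libraries did not overlap those of Ms4a6d. Ms4a4c, Ms4a8a, Ms4a7 and Ms4a6b followed between 2.88 and 1.61 CPM per kb, each overlapping the next.

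After either stimulus the order changed. Ms4a4c stood between Ms4a6d and Ms4a6c, with 222.1 ± 55.2 CPM per kb under LPS and 161.2 ± 32.2 under IFN-β, and its range overlapped that of Ms4a6c, at 200.5 ± 48.8 and 136.9 ± 31.6. Ms4a6b, Ms4a7 and Ms4a8a lay at 17.0, 8.91 and 6.13 CPM per kb under LPS, each overlapping the next. Ms4a4b, at 0.382, and Ms4a4d, at 0.243, were the lowest, and their LPS libraries overlapped. With the length of the longest transcript in place of all exons, Ms4a8a moved ahead of Ms4a4c in unstimulated DCs and ahead of Ms4a7 under IFN-β.

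**Figure D1:**
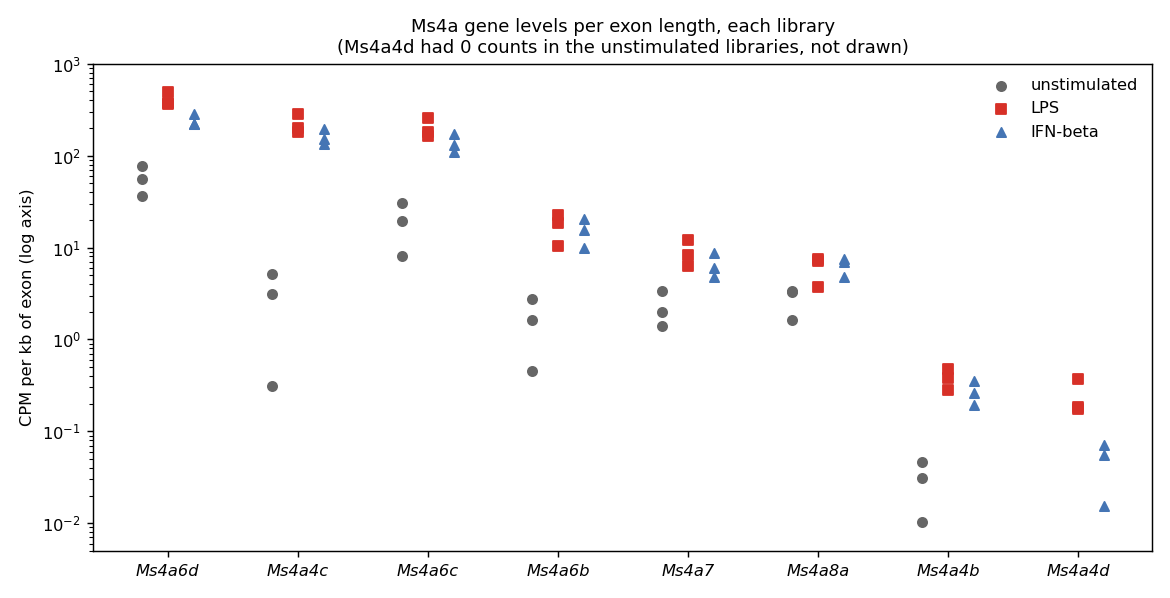
Level of each gene in CPM per kb of exon (log axis) in the 9 libraries, with 1 point per library and colour and shape for the condition. Ms4a6d sits highest in each condition, Ms4a4c moves from 2.88 to 222.1 CPM per kb on average under LPS, and Ms4a4d, with 0 counts in unstimulated libraries, has no points there.

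Both stimuli were first compared with unstimulated DCs. Under LPS, all 7 genes that passed the filter on low counts rose (edgeR's quasi-likelihood test, Benjamini-Hochberg adjusted p under 0.05), while 32.8% of the 16260 genes tested rose. Under IFN-β the same 7 genes rose, against 23.6% of all genes. Ms4a4b, with 4 to 16 counts per unstimulated library, passed the filter through the treated libraries, so the count rests on the other 6, each with at least 10 counts in every unstimulated library. All 6 rose under both stimuli, as did 31.2% and 23.2% of the 14973 tested genes with such counts. In the same 6 genes, each LPS library and each IFN-β library was above each unstimulated library. Of all 16260 tested genes, a wider set than the 14973, 34.6% and 28.5% showed a separation in that direction. Ms4a4b and Ms4a4d were separated too but are left out of that count. Ms4a4b passed the filter only through the treated libraries, and Ms4a4d did not pass it. For Ms4a4d under IFN-β the separation was 1, 4 and 3 counts against 0. Both comparisons share the unstimulated libraries.

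**Figure D2:**
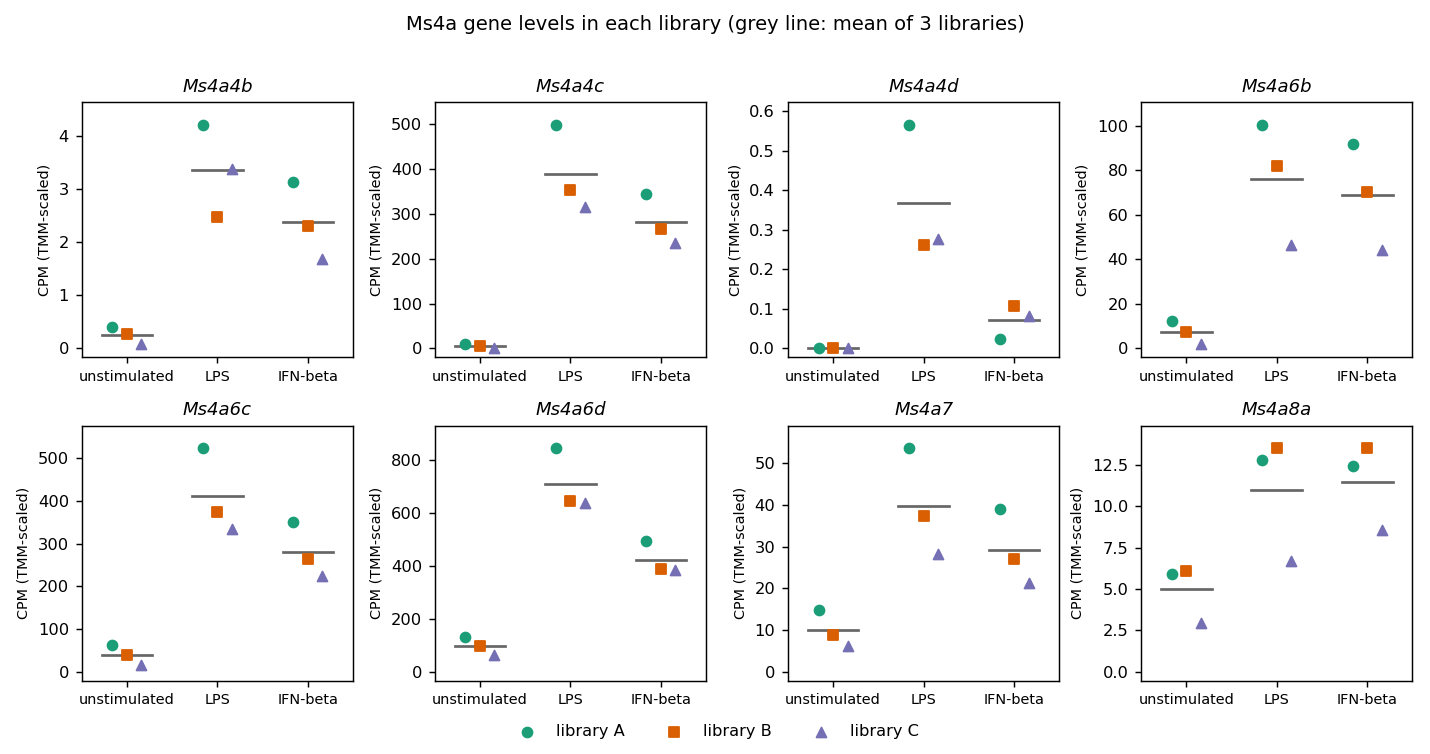
TMM-scaled CPM of the 8 genes in each library, with 1 panel per gene on its own linear axis, shape and colour for the library letter and a grey line at the mean of 3 libraries. In each panel the LPS and IFN-β points lie above the unstimulated ones, and library C is the lowest unstimulated point of the 7 genes with counts there.

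Ms4a4c, an interferon-responsive gene of the Ms4a4 branch, changed most. It was counted at 9.07, 5.50 and 0.541 CPM in unstimulated libraries A, B and C, at 498.4, 353.2 and 315.4 CPM under LPS and at 344.97, 265.7 and 235.9 CPM under IFN-β. The unstimulated libraries differed by 16.8 times between themselves, yet all lay far below the treated ones. The log2 fold change was 6.28 ± 0.65 (SE; adjusted p = 8.29e-06) under LPS, rank 82 from the top of 16260 genes, and 5.82 ± 0.64 (adjusted p = 4.79e-05) under IFN-β, rank 20. Without unstimulated library A it was 6.999 and 6.54, over 1.5 times larger as a fold.

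Ms4a4b, which has been studied in T cells as a regulator of their activation, had 4 to 16 counts per unstimulated library, or 0.405, 0.269 and 0.0902 CPM. It reached 4.21, 2.48 and 3.38 CPM under LPS and 3.14, 2.31 and 1.68 CPM under IFN-β. The log2 fold change was 3.72 ± 0.41 (adjusted p = 1.27e-05) and 3.23 ± 0.41 (adjusted p = 1.24e-04). Its close copy Ms4a4c had 8541 to 14729 counts per treated library, against 61 to 134 for Ms4a4b. The part of reads misplaced from Ms4a4c in these values was not tested. The T and NK cell markers summed to 1.03 to 1.37 CPM in unstimulated libraries, to 3.43 to 4.52 CPM under LPS and to 1.45 to 2.07 CPM under IFN-β, and their part in the Ms4a4b values was not tested. The higher sums lay in 1 marker, the kinase gene Lck, at 0.157 to 0.429, 3.08 to 3.87 and 0.679 to 1.49 CPM in the 3 conditions, while the other 9 markers summed to 0.876 to 1.01, 0.354 to 0.645 and 0.531 to 0.773 CPM.

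Ms4a4d did not pass the filter and is described by its counts. There were 0 counts in all 3 unstimulated libraries, 16, 9 and 9 counts under LPS and 1, 4 and 3 under IFN-β. Set against a floor of 3 counts per library, the mean LPS level was at least 5.23-fold higher than unstimulated, whereas the IFN-β mean was at that floor and gets no fold. With no filter on low counts, edgeR's adjusted p for Ms4a4d was 1.28e-06 for LPS and 0.017 for IFN-β against unstimulated, and 0.0051 between the stimuli. That fit also took the adjusted p of Ms4a4c under LPS from 8.29e-06 to 4.02e-23, so its p-values do not compare with those of the other genes. Against 0 unstimulated counts they rest on the treated libraries alone, for IFN-β on 1, 4 and 3 counts.

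In the Ms4a6 branch, Ms4a6d and Ms4a6c were the highest of the 8 genes per kb without a stimulus. Ms4a6d, a surface protein known from activated macrophages, was counted at 132.4, 96.2 and 62.7 CPM in unstimulated libraries A, B and C, at 846.8, 646.7 and 637.7 CPM under LPS and at 494.8, 387.8 and 386.8 CPM under IFN-β. The 3 conditions did not overlap. The log2 fold change was 2.87 ± 0.24 (adjusted p = 1.74e-06) under LPS and 2.12 ± 0.24 (adjusted p = 5.21e-05) under IFN-β.

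Ms4a6c stood at 63.1, 40.1 and 16.5 CPM unstimulated, at 524.3, 373.8 and 334.98 CPM under LPS and at 351.7, 265.3 and 224.8 CPM under IFN-β. Its log2 fold change was 3.37 ± 0.41 under LPS (adjusted p = 2.75e-05) and 2.82 ± 0.40 under IFN-β (adjusted p = 2.49e-04). The opposite-strand gene BE692007, whose exons overlap it, was at 2.89 CPM on average under LPS. That level does not show how many reads of Ms4a6c in the 1088 shared bases were counted. The CPM per kb of Ms4a6c uses all 2050 exon bases.

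Ms4a6b stood at 12.3, 7.23 and 2.03 CPM unstimulated, at 100.5, 82.1 and 46.2 CPM under LPS and at 91.9, 70.3 and 44.2 CPM under IFN-β. Its LPS and IFN-β ranges overlapped almost fully, and the difference of IFN-β from LPS was -0.13, -0.22 and -0.07 for letters A, B and C on a log2(CPM + 0.5) scale. The log2 fold change was 3.41 ± 0.53 (adjusted p = 1.71e-04) under LPS and 3.27 ± 0.52 (adjusted p = 5.39e-04) under IFN-β, and 4.03 and 3.89 without unstimulated library A.

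Ms4a7 and Ms4a8a responded least. Ms4a7, known from macrophages and microglia, stood at 14.9, 8.83 and 6.18 CPM unstimulated, at 53.6, 37.3 and 28.1 CPM under LPS and at 39.1, 26.9 and 21.2 CPM under IFN-β. Its log2 fold change was 1.996 ± 0.34 (adjusted p = 3.41e-04) and 1.55 ± 0.34 (adjusted p = 0.00338). Ms4a8a, which has been described in alternatively activated macrophages, stood at 5.90, 6.11 and 2.96 CPM unstimulated. It reached 12.8, 13.5 and 6.70 CPM under LPS and 12.4, 13.5 and 8.56 CPM under IFN-β, so that the lowest LPS library was 6.70 CPM against 6.11 in the highest unstimulated one. The log2 fold change was 1.14 ± 0.31 (adjusted p = 0.00765) under LPS and 1.21 ± 0.31 (adjusted p = 0.00887) under IFN-β. With library size alone in place of TMM, which moved the median of all genes by -0.58 under LPS, the LPS value of Ms4a8a was 0.56 and was no longer called (adjusted p = 0.109).

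**Figure D3:**
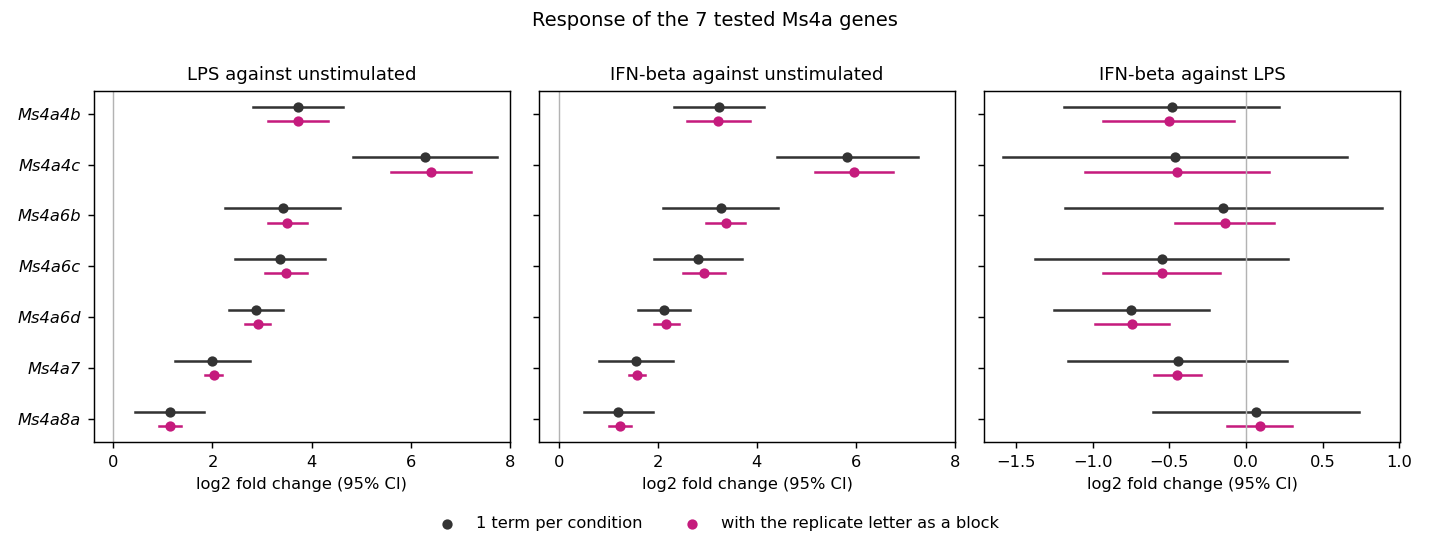
Log2 fold changes with 95% confidence intervals of the 7 tested genes in the 3 comparisons, from the model with 1 term per condition (black) and from the model with the library letter as a block (pink); the third panel has its own axis. The points lie right of 0 for both stimuli, and between the stimuli the interval of Ms4a6d (-1.25 to -0.24) leaves out 0 in both models.

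IFN-β was then compared with LPS directly, which is the difference between both responses. Of the 7 genes, 1 was lower under IFN-β, Ms4a6d, while 23.3% of all genes were lower. Its log2 difference was -0.75 ± 0.23 (adjusted p = 0.0195), and none of its IFN-β libraries reached the lowest LPS library. Of all tested genes, 27.3% showed a separation in that direction, and so did Ms4a4d, which was not among them. The call of Ms4a6d was lost without LPS library A (-0.61, adjusted p = 0.0676), without IFN-β library B (-0.69, adjusted p = 0.0688) or C (-0.69, adjusted p = 0.0641), and with library size alone (-0.47, adjusted p = 0.0661), a scaling that moved the median of all genes by 0.27. The libraries of the other 6 tested genes overlapped between the stimuli. Their log2 differences were -0.55 for Ms4a6c, -0.48 for Ms4a4b, -0.46 for Ms4a4c, -0.45 for Ms4a7, -0.15 for Ms4a6b and 0.07 for Ms4a8a, with intervals from -1.58 to 0.66 for Ms4a4c and from -0.60 to 0.73 for Ms4a8a.

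Libraries with the same letter deviated together from the means of their conditions, and with the letter as a block 4 of the 7 genes were lower under IFN-β than under LPS, against 27.6% of all genes. These were Ms4a6d (-0.74, adjusted p = 6.19e-05), Ms4a7 (-0.45, adjusted p = 1.05e-04), Ms4a6c (-0.55, adjusted p = 0.0159) and Ms4a4b (-0.51, adjusted p = 0.043). The differences of Ms4a7 by letter were -0.45, -0.46 and -0.40, although its libraries overlapped between the conditions. Ms4a4c, Ms4a6b and Ms4a8a were not called with the block either, and the blocked interval of Ms4a8a ran from -0.12 to 0.30. With 3 libraries against 3, an exact two-sided permutation test of a single gene cannot go below p = 0.1, the value reached by all 8 genes for either stimulus against unstimulated.

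The libraries of 1 condition were not alike for these genes. Library A was the highest of the 3 in 6 of the 7 tested genes in each condition, with B the highest for Ms4a8a. Library C was the lowest in 7 of 7 genes without a stimulus, in 6 under LPS and in 7 under IFN-β. The share of all tested genes with A highest or C lowest was not counted, so these counts cannot be read as particular to the 7 genes. Nor are they independent: less the condition means, the 7 genes correlated pairwise with Pearson's r of 0.445 to 0.985. The gap was widest in unstimulated DCs, where the highest library exceeded the lowest by 16.8 times for Ms4a4c, 6.08 times for Ms4a6b and 3.82 times for Ms4a6c, ranks 6, 24 and 57 of the 12569 genes at 1 CPM or more. The median of those genes was 1.15 times. In LPS libraries the ratio for Ms4a4c was 1.58 and in IFN-β libraries 1.46.

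In unstimulated libraries other gene groups also differed by letter. The summed level of 10 interferon-induced genes (among them Isg15, Ifit1 and Rsad2) was 945.4, 749.5 and 368.1 CPM in unstimulated libraries A, B and C, in the same order as 6 of the 7 Ms4a genes. The 12 monocyte and macrophage markers summed to 3084, 2472 and 2364 CPM in the same libraries, the 11 neutrophil markers to 23.2, 10.2 and 11.6 CPM and the 10 DC markers to 6729, 5479 and 5681 CPM. The summed level of the 10 inflammatory LPS targets had the opposite order, at 305.9, 356.3 and 414.7 CPM. Not each gene of that list did: Ccl4, Nos2 and Ptgs2 were highest in A and lowest in C, and Il12b and Nfkbiz had neither order. The order of the interferon-induced genes did not hold under the stimuli, where B was lowest. They summed to 30925, 24507 and 26157 CPM in A, B and C under LPS and to 11001, 9007 and 10441 CPM under IFN-β. The monocyte and macrophage markers kept the order under LPS but not under IFN-β (3751, 3224 and 3370 CPM). The part of these in the spread was not tested. With unstimulated library C this low, the response by letter was largest in C for Ms4a4c, at 8.24 on the log2(CPM + 0.5) scale under LPS against 5.70 in A and 5.88 in B. Without unstimulated library C all 7 genes were still higher under each stimulus, with Ms4a4c at 5.74 and 5.28.

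**Figure D4:**
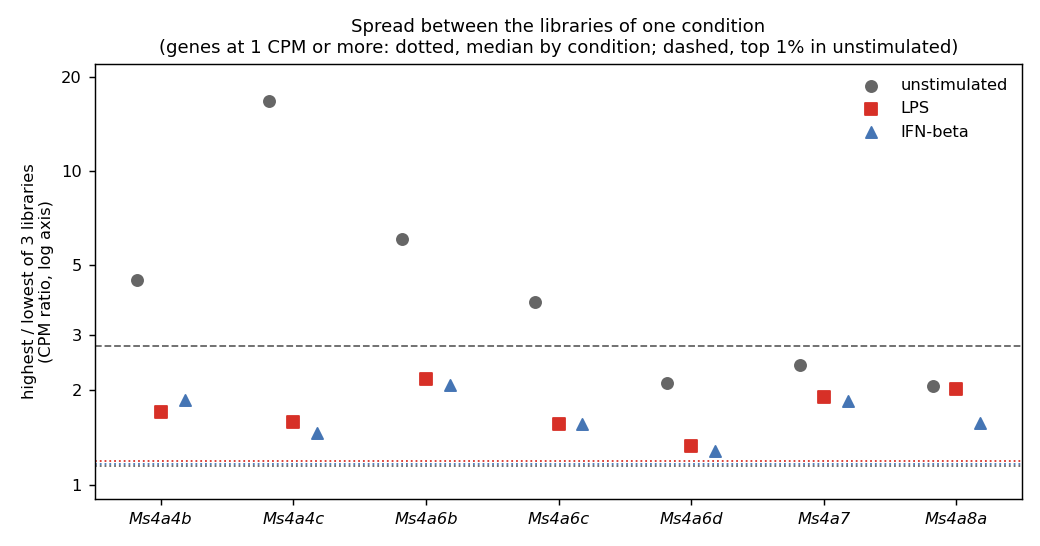
Ratio of the highest to the lowest of the 3 libraries of a condition (CPM, log axis) for the 7 tested genes. Over genes at 1 CPM or more, dotted lines mark the median ratio (1.15 to 1.19) and the dashed line the ratio that 1% exceed in unstimulated DCs (2.76), and the unstimulated points of Ms4a4c (16.8), Ms4a6b (6.08) and Ms4a6c (3.82) lie above it; Ms4a4b is under 1 CPM there, with 4 to 16 counts, and is not read against the lines.

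To place the 8 genes in their family, the 13 other mouse Ms4a genes and the related pair Tmem176a and Tmem176b were examined. Of these 15, 5 passed the filter, Ms4a19 through the treated libraries. Of the other 4, Ms4a4a and Ms4a14 rose under LPS and under IFN-β, against 32.8% and 23.6% of all genes. Ms4a4a, the mouse counterpart of a human macrophage marker, went from 8.63 ± 3.77 CPM (SD, n = 3) to 67.1 ± 24.0 under LPS and 31.4 ± 13.0 under IFN-β (log2 fold changes 2.96 and 1.87, adjusted p = 3.92e-05 and 0.00188). It was lower under IFN-β than under LPS (-1.09, adjusted p = 0.0234). Ms4a14 went from 1.63 to 12.5 and 7.58 CPM (2.95 and 2.23, adjusted p = 6.58e-05 and 0.00108). With the letter as a block Ms4a14 was also lower under IFN-β than under LPS (-0.73, adjusted p = 6.72e-04). Ms4a19 had 0 counts without a stimulus, and its mean was at least 9.35-fold higher under LPS and at least 3.12-fold higher under IFN-β than the floor of 3 counts per library.

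Tmem176a and Tmem176b, at 17.2 and 21.1 CPM on average in unstimulated DCs, were not called in the 3 comparisons, with log2 differences between -0.09 and 0.23. With the letter as a block, Tmem176b was higher under LPS (0.22, adjusted p = 0.0376), as were 35.4% of all genes. Ms4a5, Ms4a10, Ms4a12, Ms4a13 and Ms4a15 had 0 counts in all 9 libraries. The B cell gene Ms4a1 had 0 to 3 counts per library and the mast cell gene Ms4a2 0 to 2, so the markers of those lineages that belong to the family were near 0.

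Receptors and adaptors that MS4A proteins are described to work with did not follow one direction. Of 11 such genes 9 were tested, and 3 rose and 4 fell under LPS, where 32.8% of all genes rose and 35.4% fell. Fcer1g, the shared γ chain of Fc receptors, rose from 253.1 ± 21.4 to 572.8 ± 31.95 CPM (1.18 ± 0.08, adjusted p = 4.39e-07). The kinase gene Syk rose by 0.91 (adjusted p = 2.05e-06) and the MHC class II gene H2-Ab1 by 0.45 (adjusted p = 0.013). Tnfrsf18, which encodes GITR, had a log2 fold change of -1.91 (adjusted p = 7.13e-06), Trem2 of -1.04 (adjusted p = 4.50e-05) and Clec7a, which encodes Dectin-1, of -0.56 (adjusted p = 6.17e-04), all lower. Under IFN-β, 3 rose, among them Clec7a (0.32, adjusted p = 0.024), and 1 fell, against 23.6% and 23.3% of all genes. With the letter as a block Trem2 fell too (-0.28, adjusted p = 0.00166), as did 28.4% of all genes. Vsig4 had 0 counts in each library.

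As a reference for the size of these responses, all 10 interferon-induced genes rose under both stimuli, with log2 fold changes of 2.57 to 9.62 for LPS and 1.87 to 7.03 for IFN-β, the largest in Cxcl10 and Rsad2. In this list 7 of 10 were lower under IFN-β than under LPS. Of 10 inflammatory LPS targets, all rose under LPS, by 3.34 to 10.89, Nos2 and Ptgs2 being the most induced. Under IFN-β 7 of the 10 rose too, where 23.6% of all genes rose, and the 10 log2 fold changes ran from 0.33 to 5.38. IFN-β left all 10 below their LPS level (log2 differences of -2.02 to -9.72). The differences of the 7 Ms4a genes between the stimuli, from -0.75 to 0.07, were smaller in size than each of those 10. For the interferon-induced genes these differences ran from -2.59 to -0.16, which overlaps the range of the Ms4a genes and reaches further below it. Both lists were chosen with earlier results of these data known, and which list the Ms4a genes resemble more was not tested.

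The genes with the pattern most like each Ms4a gene were taken by Pearson's r of log2(CPM + 0.5) over the 9 libraries, which form 3 conditions, among all tested genes. For Ms4a4c the 3 most alike were Ifi213 (r = 0.999), BC147527 (0.998) and Oas1a (0.998), and for Ms4a6d they were Slfn8 (0.998), Gm5431 (0.998) and Tmem106a (0.998). For Ms4a6c the closest was Tapbp (0.997), for Ms4a6b Lgals3bp (0.997), for Ms4a4b Gm37320 (0.996), for Ms4a7 Igf2bp2 (0.992) and for Ms4a8a Dot1l (0.977). Pearson's r does not weigh the size of a change. Under LPS the log2 fold change was 4.08 for Ifi213 and 3.61 for Slfn8, against 6.28 for Ms4a4c and 2.87 for Ms4a6d. It was 1.52, 1.19, 1.25, 1.97 and 0.41 for Tapbp, Lgals3bp, Gm37320, Igf2bp2 and Dot1l. Their Ms4a genes had 3.37, 3.41, 3.72, 1.996 and 1.14. With Spearman's rho in place of r, 0 of these 21 genes were kept.

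**Figure D5:**
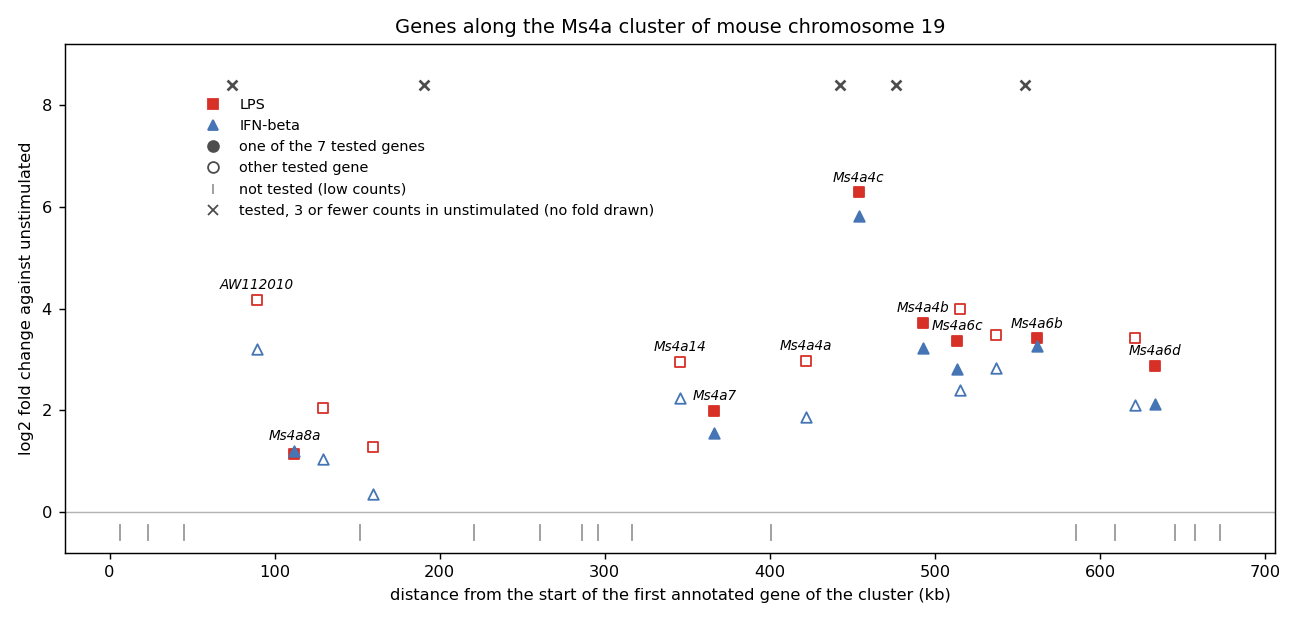
Log2 fold change under LPS (squares) and IFN-β (triangles) of the tested genes along the Ms4a cluster, by distance from the start of its first gene in kb; filled points are the 7 Ms4a genes described here, crosses mark tested genes with 3 or fewer unstimulated counts (no fold drawn) and grey ticks genes not tested. The drawn points lie above 0, from 1.14 for Ms4a8a to 6.28 for Ms4a4c among the 7 under LPS.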

How the data were processed

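RNA was measured by rRNA-depleted, paired-end sequencing in 9 libraries of 3 conditions. Per the labels and the methods of the study, the authors trimmed adapters with Trim Galore (0.6.0) and mapped reads to GRCm38 (mm10) with STAR (2.7.8a in the submitters' processing notes, another version in the methods), whose gene counts they deposited as raw counts, neither normalized nor filtered. The strand setting of the counting is not given in the sources used here, and STAR's gene counting leaves out reads that map to more than 1 place.

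Counts were scaled by TMM and tested with edgeR 4.0.16 (quasi-likelihood F-test, 1 term per condition, all 9 libraries) in R 4.3.3, after filterByExpr left 16260 of 55471 genes, with Benjamini-Hochberg adjustment over them and a threshold of 0.05. The step was tested on simulated data. Single genes were compared by exact permutation of 3 against 3 libraries. Replicate libraries differed beyond sampling noise and were each kept. The library letters of the labels were checked as pairs: all 9 correlations between same-letter libraries of deviations from the condition means were above 0.1 (0.134 to 0.546), so the blocked values are given where they change a call in the text. This pairing comes from the data, since the labels do not say what a letter stands for. Alternatives were DESeq2 1.42.0, other scalings and filters, fewer samples and leaving out each library.

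The members and gene lists were chosen with earlier results of these data known. All 8 genes are named; of other Ms4a genes and partners, those past the threshold with the largest changes, at most 6 per comparison; of the reference lists, the range and the 2 largest; and 3 like genes per member. Gene positions come from GENCODE M21, promoters from RefSeq. Counts limit the precision: a count of 0 allows up to 3 counts per library, 0.0674 to 0.106 CPM, and such floors cover counting error only. Protein sequences were not used here.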

Additional observations from a re-analysis of the deposited data

Results flagged for a closer look

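Ms4a6d was the 1 gene of the 7 whose response differed between the stimuli by the test of the difference itself: the response to IFN-β minus the response to LPS was -0.75 ± 0.23 (SE) on the log2 scale (edgeR's quasi-likelihood test, adjusted p = 0.0195). The IFN-β mean was 423.1 CPM and the LPS mean 710.4 CPM, and by letter the difference was -0.77, -0.74 and -0.72 in A, B and C on the log2(CPM + 0.5) scale. Of all tested genes, 23.3% were lower under IFN-β than under LPS by the same test. The call of Ms4a6d was lost in 4 alternatives (adjusted p = 0.0641 to 0.0688). With the letter as a block 4 of the 7 genes were lower under IFN-β than under LPS, against 27.6% of all genes: Ms4a6d, Ms4a7, Ms4a6c and Ms4a4b.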

How the results depend on the processing

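Over 21 values (7 genes, 3 comparisons), 333 alternative values were computed, and 318 of them kept direction and side of the threshold, 5 lost the call, 5 gained it and 5 turned sign. The counts of genes higher under LPS (7) and under IFN-β (7) ranged from 6 to 8. Both were 6 with at least 10 counts in every library, where Ms4a4b has no value, and 8 without a filter, where Ms4a4d enters, and the LPS count was also 6 with library size only, where Ms4a8a lost its call. Between the stimuli the count of 1 was 0 with library size only, 3 with no filter, 2 with only the compared groups and 0 to 1 when leaving out single libraries. The replicate block gave 4, with Ms4a4b at -0.51 (adjusted p = 0.043), Ms4a6c at -0.55 and Ms4a7 at -0.45, and changed no other call of the 7 genes. Ms4a6c was also called with no filter (-0.53, adjusted p = 0.0308) and with only the compared groups (-0.53, adjusted p = 0.0476). Library size only gave 0.56 for Ms4a8a under LPS and, between the stimuli, -0.47 for Ms4a6d and 0.14 for Ms4a6b; less the shift of all genes these are 1.14, -0.74 and -0.14. Leaving out single libraries moved the difference between the stimuli from -0.88 to -0.61 for Ms4a6d, from -0.42 to 0.093 for Ms4a6b and from -0.20 to 0.24 for Ms4a8a. Of the 8 genes without overlap under LPS, the count with library size only was 7. The causes were not tested. Counts of 0 to 16 limit Ms4a4d and unstimulated Ms4a4b.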

Other observations

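The Ms4a cluster, from Ms4a10 to Ms4a3, spans 35 annotated genes, of which 20 passed the filter, some of them through the treated libraries. In a selection made after the data were seen, 12 had at least 10 counts in each unstimulated library. Of these, 12 were higher under LPS and 11 under IFN-β, where 31.2% and 23.2% of all tested genes with such counts were higher. Of the 12, 4 do not carry an Ms4a name (AW112010, Gm6501, Gm8369 and Gm38275): 4 were higher under LPS, 3 were higher under IFN-β and 2 were lower under IFN-β than under LPS, where 22.6% of the genes with such counts were lower. The following were chosen after their values were seen. The most abundant was the long noncoding RNA AW112010, at 53.96 CPM on average in unstimulated DCs, 972.5 under LPS and 496.5 under IFN-β (log2 fold changes 4.17 ± 0.17 and 3.20, adjusted p = 1.32e-08 and 8.83e-07), with a difference between the stimuli of -0.97 (adjusted p = 4.20e-04). Gm8369, between Ms4a6c and Ms4a6b, stood at 0.795, 8.90 and 5.67 CPM (3.49 and 2.84), and Gm38275, beside Ms4a6d, at 0.904, 9.66 and 3.84 CPM (3.43 and 2.10). Several genes of the cluster without an Ms4a name lie on the opposite strand of an Ms4a gene or are short pseudogenes with few counts. Gm5692 shares 28 exon bases with Ms4a4c and Gm19261 shares 19 with Ms4a6b. Without the strand setting it is not known how reads in shared bases were counted. The cause of the shared direction was not tested.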
